A study of Brassica napus with 27 samples.

Results

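A set of 24 genes annotated to the phenylpropanoid, lignin and flavonoid routes was followed in leaves of oilseed rape (Brassica napus, cultivar Visby) after treatment with an auxinic herbicide. They are the genes whose description in the deposited table named phenylalanine ammonia-lyase, a chalcone, coumaroyl, cinnamoyl, caffeoyl, flavonoid or anthocyanin enzyme, a laccase or a dirigent protein, and which reached an FPKM (a level scaled by gene length and by library size) of at least 1 in at least 3 of 27 libraries. In all, 81 of the 104573 genes in the table carried such a description, and 24 passed the filter on low values. Only 9550 genes had a functional description, so genes of the pathway without one are not covered.

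Phenylalanine ammonia-lyase (PAL) removes the amino group of phenylalanine and opens the phenylpropanoid route, and cinnamate 4-hydroxylase (C4H) adds the first hydroxyl group to its product. The route then divides. One arm leads to monolignols, which laccases oxidise during lignin formation and whose coupling dirigent proteins steer into lignans and related compounds. The other arm starts with chalcone synthase and chalcone isomerase and leads to flavonols and, through anthocyanidin synthase, to anthocyanins, the pigments that colour stressed leaves.

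The plants were grown at a constant 15 °C with 12 h of light and 4 plants per pot to an early leaf stage. The controls received the solvent, a dilute mixture of DMSO, Triton X-100 and sodium hydroxide, although their treatment labels read as untreated, the Hal groups received halauxifen-methyl in that solvent and the Pic groups picloram, each applied as 5 drops. All groups shared cultivar, soil and temperature, and leaves were frozen 2, 48 and 96 h after application, with 3 replicates from different plant material in each of the 9 groups. The doses differed, with 0.5 µg for Hal and 2.4 µg for Pic. The sample labels give these amounts per leaf, and the study's other texts give them per plant or per volume, so the dose per leaf area is not fixed by the sources.

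The reads behind the FPKM values could be worked back, and the libraries held 15565637 to 19692242 reads assigned to genes, of which 1764 to 3578 fell on the 24 genes. The 58 genes described as chlorophyll a-b binding or as the small chain of Rubisco were used as a check of the leaf label. They summed to 98700 to 198000 FPKM and were abundant in every library. That sum differed between groups, with 168247 to 189997 FPKM in control at 96 h, 98665 to 107691 after Hal and 115711 to 117542 after Pic. The totals that the authors divided by also differed, at 0.751 to 0.808 times the reads in the table for control at 96 h and 1.20 to 1.25 times for Hal at 96 h. Scaling the libraries to equal totals instead put the median log2 difference of all genes at 0.42 for Hal and 0.28 for Pic at 96 h, where the deposited scaling has it near 0. Counts for a comparison that moved by over 1.5 times with this choice are therefore given under both scalings. The part of these differences in the results was not tested. One library, replicate 3 of Hal at 2 h, had reads on 53523 genes, where the others had 56640 or more, and counts for Hal at 2 h are given with and without it.

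Among the 24 genes were 2 PAL genes of 3 described, the only gene described as C4H, 6 of 8 genes of the chalcone-flavonone isomerase family, the only anthocyanidin synthase, 3 of 26 laccases and 11 of 41 dirigent proteins. The single gene described as a flavonol synthase did not pass. Of the 57 genes that did not pass, 20 had no read in any library, and the highest FPKM that any of them reached was 1.03. The genes nearest to the threshold were the dirigent gene BnaUnng05170D inside it, whose third-highest library stood at 1.14 FPKM, and the laccase BnaC04g54790D outside it, at 0.796. No description named chalcone synthase, 4-coumarate ligase or the reductases and methyltransferases of the monolignol arm.

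By their names, 14 of the genes lie on the A subgenome, 9 on the C subgenome and 1 is unplaced. The median of their mean levels was 3.83 FPKM, against 2.85 FPKM for the 46395 genes tested, and 13 of the 24 averaged under 5 FPKM. All 11 dirigent genes were annotated as a single block without introns, as were 14.7% of all genes tested. The dirigent genes BnaA06g00450D and BnaA06g00460D are neighbours, 2541 bases apart on scaffold LK032153 with no gene between them, and the chalcone isomerase family gene BnaA06g00880D lies on the same scaffold 42 genes further on. Brassica napus carries near-identical copies of many genes, and how reads matching several copies were assigned is not given in the sources used here, so a value for one copy may include reads of another.

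Each treatment was compared with control at the same hour by the moderated test of limma on log2(FPKM + 1), fitted over all 27 libraries, with p-values adjusted by Benjamini-Hochberg over all 46395 genes. A gene was called at an adjusted p under 0.05. Differences are on the log2(FPKM + 1) scale, which understates the change of low genes. The samples are whole leaves, so a shift in the share of cells of a type and a shift in RNA per cell cannot be told apart.

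Of the 24 genes, 22 were called in at least 1 of the 6 comparisons with control, as were 83.2% of all genes tested. At each hour Hal and Pic share their control libraries. Of the called genes, 10 were called only as downregulated, 7 only as upregulated and 5 in both directions. The 7 include the dirigent BnaC05g39660D, whose direction the filter on low values fixed. No share of all genes is given for this split or for calls in all 6, so neither is read as particular to the 24. The dirigent BnaA05g13900D and the chalcone isomerase family gene BnaA06g00880D were downregulated in all 6, and the dirigents BnaA03g58750D and BnaUnng05170D were called in none.

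After 2 h of Hal treatment, 10 of the 24 genes were downregulated, against 11.4% of all genes tested, and 0 were upregulated, against 10.1%. For the upregulated genes limma voom on the worked-back reads also called 0, and 1 gene rose at an unadjusted p under 0.05. Without replicate 3 of Hal the counts were 8 down and 0 up, and with equal totals 9 down and 0 up, against 11.2% and 11.3% of all genes. After 2 h of Pic treatment 9 genes were downregulated, against 9.37%, and 1 was upregulated, against 10.7%. With equal totals the Pic counts were 8 down and 2 up, against 8.62% and 12% of all genes. The downregulated count fell to 5 without control replicate 1 and likewise without control replicate 2, and the single rise, of the chalcone isomerase family gene BnaA09g34840D, was not called without control replicate 2, control replicate 3, Pic replicate 1 or Pic replicate 2.

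After 48 h Hal treatment gave 11 downregulated genes, against 25.1% of all genes, and 0 upregulated, against 23.3%. Voom again called 0 as upregulated, and 1 gene rose at an unadjusted p under 0.05. Equal totals changed this to 4 up and 7 down, where 39.6% of all genes rose and 15.1% fell. Pic treatment gave 5 down, against 17.9%, and 3 up, against 13.9%, and 4 up and 2 down with equal totals, where 22.5% of all genes rose and 10.9% fell. The Pic counts were sensitive to single libraries. The 5 downregulated genes became 3 without control replicate 1, 2 without Pic replicate 1 and 3 without Pic replicate 2, and the 3 upregulated genes became 1 without control replicate 1, control replicate 3, Pic replicate 1 or Pic replicate 2.

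After 96 h the 2 treatments gave different splits. Hal treatment gave 2 upregulated and 9 downregulated genes, against 29.1% and 30.2% of all genes, and Pic treatment gave 10 upregulated and 9 downregulated, against 22.2% and 26.4%. With equal totals the counts were 8 up and 6 down for Hal and 12 up and 4 down for Pic, where 51.7% of all genes rose and 16.1% fell after Hal and 41% rose and 12.6% fell after Pic. The median difference of the 24 genes was -0.28 for Hal and 0.29 for Pic, against 0.01 and -0.01 over all genes, and the Hal median turned to 0.16 with equal totals. Leaving out the dirigent genes, Pic treatment at 96 h gave 9 up and 3 down among the other 13, and 10 up and 2 down with equal totals. Hal treatment gave 1 up and 3 down among the same 13. With equal totals 1 PAL gene, 4 chalcone isomerase family genes and 1 laccase were upregulated by Hal, and 2 of that family were downregulated. The upregulated counts over the 24 genes at 96 h include the dirigent BnaC05g39660D, which passed the filter on low values only through treated libraries of that hour, so its direction there was fixed by the filter.

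**Figure D1:**
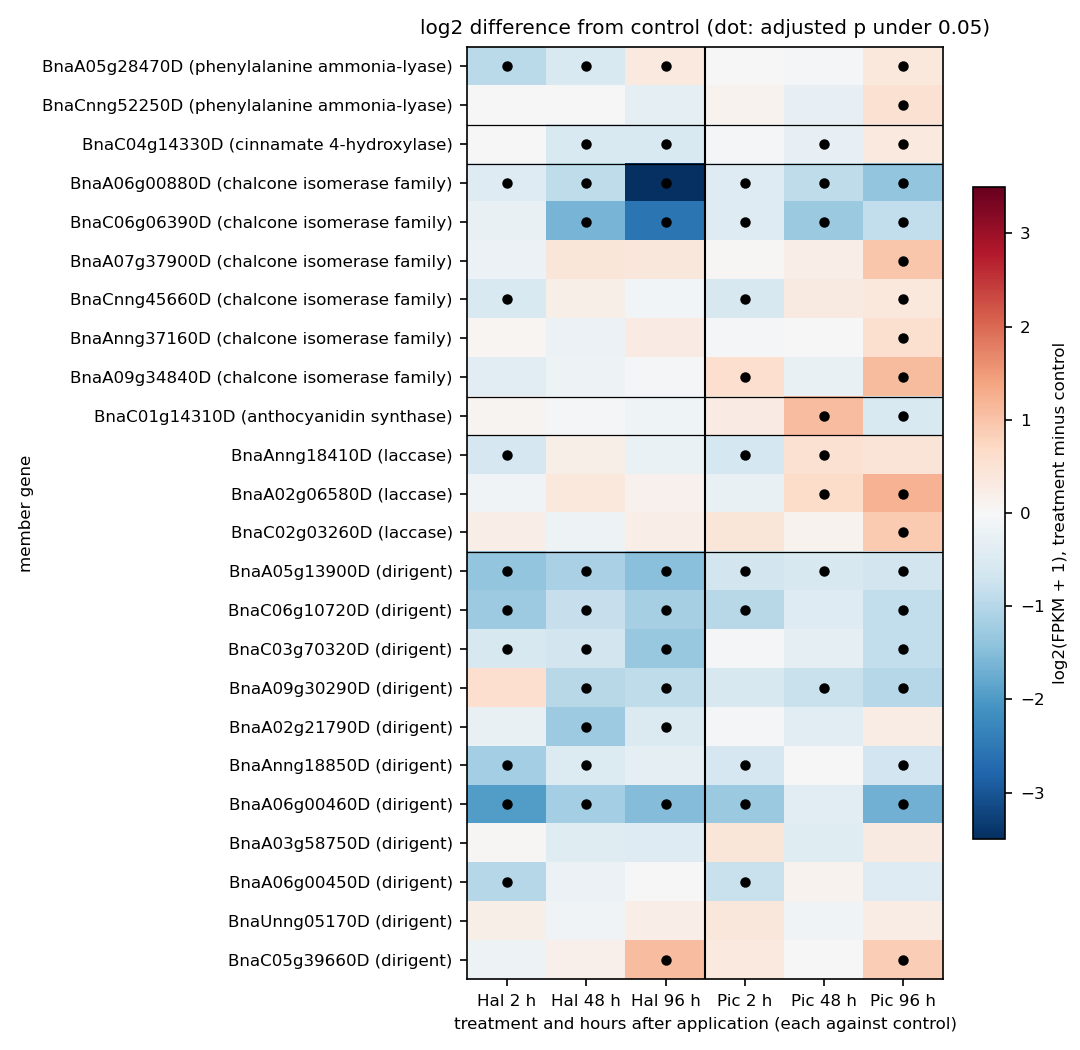
Difference of each of the 24 genes from control on the log2(FPKM + 1) scale, by treatment and hour (columns) and gene (rows, grouped by enzyme class and ordered by mean FPKM). Colour gives the difference and a dot marks an adjusted p under 0.05. Most dirigent rows are blue under both treatments, BnaA06g00880D after Hal at 96 h is the deepest blue at -3.48, and the column for Pic at 96 h holds 10 upregulated genes above or among the blue rows.

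The PAL gene BnaA05g28470D (scaffold LK031986, 917152 to 920781, minus strand) was downregulated by Hal early and not at 96 h. At 2 h its FPKM was 5.88, 6.45 and 5.46 in the 3 control libraries, 3.11, 2.72 and 2.14 after Hal and 6.03, 6.16 and 5.37 after Pic. All Hal libraries thus lay below all others, while Pic and control overlapped. The difference for Hal was -0.93 (SE 0.11, n = 3 per group, limma adjusted p = 1.01e-06) and that for Pic was -0.01 (SE 0.11, adjusted p = 0.954). At 48 h the gene was still lower after Hal, by -0.54 (limma adjusted p = 0.000305), at 4.85 ± 0.48 against 7.48 ± 0.54 FPKM (mean ± SD, n = 3). Under equal totals the 48 h difference was -0.20 and was not called.

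At 96 h the same gene stood above control under both herbicides, at 6.98, 5.88 and 6.22 FPKM after Hal, 7.05, 5.79 and 6.65 after Pic and 5.11, 4.51 and 4.65 in control. Neither herbicide's libraries overlapped the control libraries. The differences were 0.35 for Hal (SE 0.11, limma adjusted p = 0.00862) and 0.38 for Pic (SE 0.11, adjusted p = 0.00704). The change in the Hal response from 2 to 96 h, tested as an interaction term that was added after the data had been seen, was 1.28 (SE 0.16, limma adjusted p = 3.12e-07).

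The second PAL gene, BnaCnng52250D (scaffold LK035450, 12049 to 14832, minus strand), was called only for Pic at 96 h. Its FPKM was then 6.02, 5.66 and 6.05 after Pic, 4.84, 3.90 and 2.86 in control and 2.69, 3.44 and 2.53 after Hal. The Pic libraries lay above all others and the Hal and control libraries overlapped. The difference was 0.53 for Pic (SE 0.14, limma adjusted p = 0.00294) and -0.31 for Hal (SE 0.14, adjusted p = 0.056).

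C4H, the gene BnaC04g14330D (scaffold LK031931, 1078568 to 1080535, minus strand), was downregulated by Hal and upregulated by Pic at 96 h, against the same control libraries, the only one of the 24 with such a pair of calls. At 2 h the 9 libraries overlapped between 11.7 and 15.7 FPKM. At 96 h control stood at 11.0, 11.9 and 11.2 FPKM, Hal at 7.98, 6.98 and 7.81 and Pic at 14.9, 13.6 and 15.3. The 3 groups did not overlap. The differences from control were -0.53 for Hal (SE 0.11, limma adjusted p = 0.000203) and 0.33 for Pic (SE 0.11, adjusted p = 0.0145). The fall under Hal depended on the scaling and was 0.06 with equal totals, and the rise under Pic was not called without Pic replicate 3. At 48 h both treatments lowered the gene, by -0.52 for Hal (limma adjusted p = 0.000361) and -0.29 for Pic (adjusted p = 0.046), neither of which was called with equal totals. The Pic call at 48 h was lost without control replicate 2, Pic replicate 1 or Pic replicate 2.

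Anthocyanidin synthase, BnaC01g14310D (scaffold LK032007, 35415 to 36874, minus strand), was low throughout and rose once. At 48 h its FPKM was 2.18, 1.97 and 1.73 after Pic, against 0.59, 0.43 and 0.23 in control and 0.44, 0.43 and 0.29 after Hal. These values rest on 34 to 44 reads per Pic library and 4 to 10 reads per control library. The Pic libraries stood apart from both other groups, with a difference from control of 1.07 (SE 0.18, limma adjusted p = 6.55e-05). At 96 h the gene was below control after Pic, by -0.54 (SE 0.18, limma adjusted p = 0.018), at 5 to 10 reads per Pic library. That call was lost with equal totals, and also without control replicate 3, Pic replicate 2 or Pic replicate 3.

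**Figure D2:**
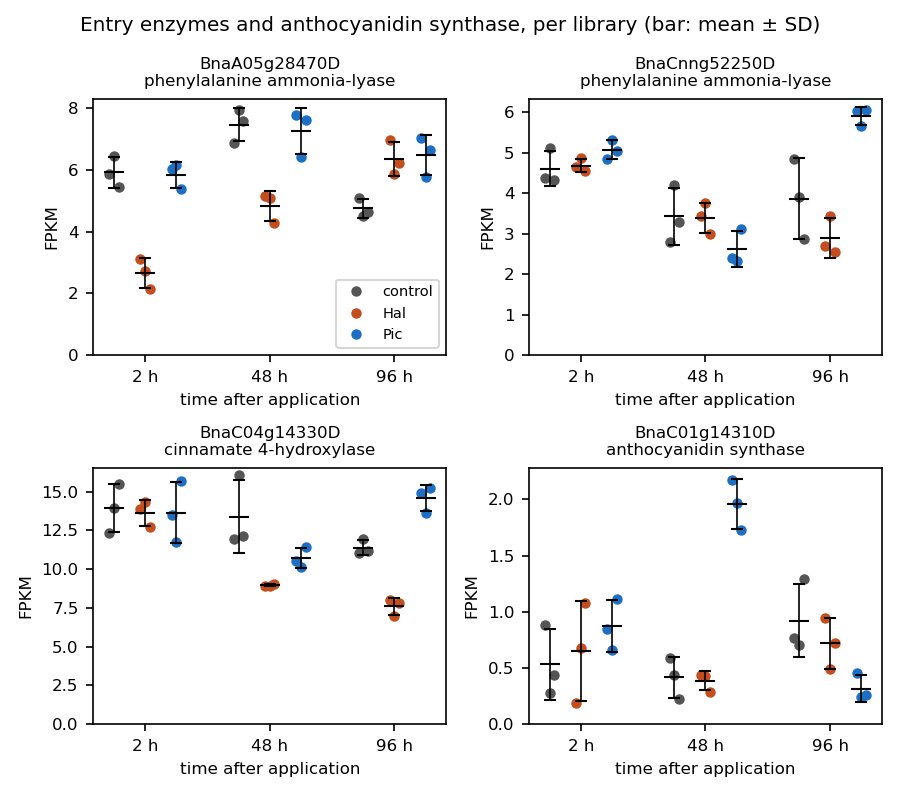
FPKM of the 2 PAL genes, C4H and anthocyanidin synthase in each library (points), by hour and treatment, with the mean and SD over 3 replicates. The Hal points of BnaA05g28470D lie below control at 2 h and above it at 96 h, the C4H groups separate in the order Hal, control, Pic at 96 h, and anthocyanidin synthase stands up only for Pic at 48 h.

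The 6 genes of the chalcone isomerase family fell into a pair that declined strongly and 4 that rose after Pic. Chalcone isomerase closes the chalcone ring into a flavanone, although members of this protein family in Arabidopsis include fatty acid-binding proteins without that activity, and the description does not tell them apart. The summed level of the 6 genes at 96 h was 68.4 ± 4.73 FPKM in control, 24.3 ± 1.63 after Hal and 53.5 ± 2.72 after Pic (mean ± SD, n = 3). Most of the control sum came from BnaA06g00880D and BnaC06g06390D, at means of 34.1 and 16.7 FPKM.

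BnaA06g00880D (scaffold LK032153, 425276 to 427005, plus strand) showed the largest difference of any of the 24 genes. At 96 h its FPKM was 30.4, 36.1 and 35.7 in control, 1.56, 1.75 and 3.35 after Hal and 13.4, 12.5 and 11.3 after Pic. The 3 groups were widely apart, with Hal at 38 to 75 reads per library. The difference for Hal was -3.48 (SE 0.15, limma adjusted p = 5.84e-16), a 15.4-fold drop of the mean FPKM, and that for Pic was -1.39 (SE 0.15, adjusted p = 3.75e-08), a 2.75-fold drop.

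The decline of BnaA06g00880D grew with time under Hal. The mean FPKM was 17.9 at 2 h, 14.2 at 48 h and 2.22 at 96 h after Hal, against 24.8, 26.8 and 34.1 in control and 18.1, 14.0 and 12.4 after Pic. At 2 and 48 h the differences between Hal and Pic were -0.02 (95% interval -0.32 to 0.28, limma adjusted p = 0.955) and 0.01 (-0.29 to 0.32, adjusted p = 0.963) and did not pass the test. The Hal response changed by -3.03 between 2 and 96 h (SE 0.21, limma adjusted p = 1.51e-11) and the Pic response by -0.95 (SE 0.21, adjusted p = 0.00104). The calls at 2 h were small, at -0.46 for Hal and -0.44 for Pic. The Hal call was lost without control replicate 1, control replicate 3, Hal replicate 1 or Hal replicate 2. The Pic call was lost with equal totals and without any one of the control replicates, Pic replicate 2 or Pic replicate 3.

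BnaC06g06390D (scaffold LK032614, 58774 to 60546, minus strand) was also lowered by both herbicides. At 48 h it stood at 19.5, 16.9 and 21.8 FPKM in control, 6.34, 5.11 and 5.46 after Hal and 7.28, 8.03 and 6.36 after Pic. Both herbicides had lowered it below every control library, by -1.62 (SE 0.13, limma adjusted p = 3.91e-10) and -1.31 (SE 0.13, adjusted p = 4.55e-08). At 96 h Hal libraries held 2.64, 2.31 and 1.29 FPKM and Pic libraries 9.22, 8.35 and 8.73, against 16.6, 17.5 and 15.8 in control. The difference had deepened to -2.55 for Hal (SE 0.13, limma adjusted p = 4.46e-14) and stood at -0.85 for Pic (SE 0.13, adjusted p = 1.32e-05).

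The other 4 genes of the family were upregulated by Pic at 96 h and not called for Hal at that hour. They are named here after their values had been seen. Of all genes, 22.2% were upregulated by Pic and 29.1% by Hal at that hour. BnaA09g34840D stood at 6.96, 9.27 and 9.23 FPKM after Pic, 3.70, 3.34 and 3.06 in control and 3.23, 3.26 and 3.25 after Hal, and its Pic difference was 1.11 (SE 0.18, limma adjusted p = 2e-05). BnaA07g37900D followed at 10.6, 9.44 and 10.9 FPKM after Pic against 5.48, 5.15 and 3.88 in control, a difference of 0.96 (SE 0.19, limma adjusted p = 0.000223). For both, all Pic libraries lay above all control libraries. The rises of BnaAnng37160D (0.55, limma adjusted p = 0.0447) and BnaCnng45660D (0.36, adjusted p = 0.0329) were smaller and neither was called by voom. BnaAnng37160D overlapped control and lost its call without control replicate 1, control replicate 3, Pic replicate 1 or Pic replicate 3, and BnaCnng45660D lost it without any control replicate or Pic replicate 3.

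Under equal totals the 4 genes were called as upregulated by Hal too at 96 h. The differences were 0.95 for BnaA07g37900D, 0.81 for BnaAnng37160D, 0.46 for BnaA09g34840D and 0.44 for BnaCnng45660D. Under that scaling 51.7% of all genes rose after Hal at 96 h and the median difference of all genes was 0.42, near the smaller of these differences. The fall of BnaA06g00880D and BnaC06g06390D at 96 h was called under both scalings and both treatments. At 2 h BnaCnng45660D was downregulated by both, by -0.53 after Hal (limma adjusted p = 0.00746) and -0.55 after Pic (adjusted p = 0.00546). The Hal call for that gene was lost without control replicate 3.

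**Figure D3:**
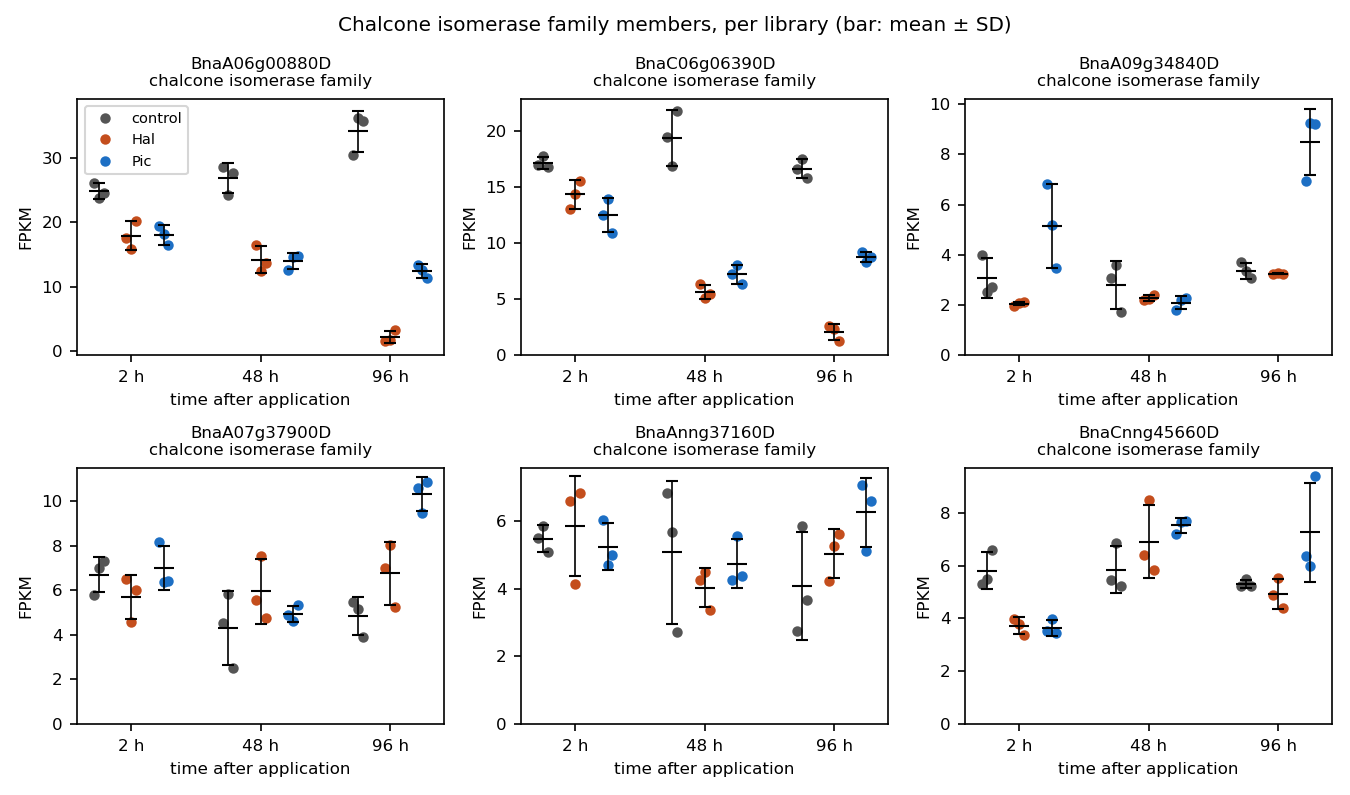
FPKM of the 6 chalcone isomerase family genes in each library (points), by hour and treatment, with the mean and SD over 3 replicates. BnaA06g00880D and BnaC06g06390D drop to means of 2.22 and 2.08 FPKM after Hal at 96 h, while the Pic points of BnaA09g34840D and BnaA07g37900D at 96 h lie above every control and Hal point of that hour.

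The laccases, copper enzymes that oxidise monolignols in the cell wall, were low, and 2 of the 3 were upregulated by Pic at each of the later hours. Their summed level was 7.48 ± 1.17 FPKM in control at 2 h and 2.88 ± 0.57 at 96 h, and the 96 h sums were 2.76 ± 0.02 after Hal and 6.96 ± 0.47 after Pic (mean ± SD, n = 3). Of all genes 13.9% and 22.2% rose after Pic at those hours. BnaC02g03260D was not called at 48 h nor BnaAnng18410D at 96 h. With equal totals 2 were upregulated by Pic at 48 h and 3 at 96 h, where 22.5% and 41% of all genes rose. The count at 48 h was 0 without control replicate 1, control replicate 3, Pic replicate 1 or Pic replicate 2, and 1 without either of the remaining libraries. None was called for Hal at those hours, where 23.3% and 29.1% of all genes rose. With equal totals 2 were upregulated by Hal at 48 h and 1 at 96 h, against 39.6% and 51.7% of all genes. Voom on the worked-back reads called 0 for Hal at those hours, and 0 passed an unadjusted p under 0.05.

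BnaA02g06580D (scaffold LK031993, 845132 to 847415, minus strand) was called for Pic at the later 2 hours only. Control at 2 h held 2.06, 1.93 and 1.91 FPKM. At 96 h it stood at 0.46, 0.28 and 0.15 FPKM in control, 0.54, 0.44 and 0.33 after Hal and 1.57, 2.33 and 2.17 after Pic, from 4 to 12 reads per control library and 58 to 82 per Pic library. The Pic libraries did not overlap the others and the difference from control was 1.22 (SE 0.21, limma adjusted p = 5.07e-05). The Pic response changed by 1.47 between 2 and 96 h (SE 0.30, limma adjusted p = 0.000597). Its call for Pic at 48 h, at 0.63, was lost without control replicate 1, control replicate 3, Pic replicate 1 or Pic replicate 2.

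BnaC02g03260D (scaffold LK032587, 54648 to 57044, minus strand) behaved in the same way at 96 h, with 2.20, 1.91 and 1.60 FPKM after Pic, 0.34, 0.78 and 0.54 in control and 0.94, 0.81 and 0.66 after Hal. The Pic difference was 0.91 (SE 0.16, limma adjusted p = 4.25e-05), and the Hal and control libraries overlapped.

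BnaAnng18410D (scaffold LK034214, 18595 to 20939, plus strand), the most abundant laccase on average, was called down at 2 h and, for Pic, up at 48 h. At 2 h it stood at 5.39, 4.91 and 3.92 FPKM in control, 3.53, 3.70 and 1.62 after Hal and 1.79, 3.33 and 3.32 after Pic. Both treatments were below control, by -0.58 (SE 0.20, limma adjusted p = 0.0405) and -0.61 (SE 0.20, adjusted p = 0.0315). The Hal call was lost without Hal replicate 3, control replicate 1 or control replicate 2, and the Pic call without Pic replicate 1, control replicate 1 or control replicate 2. At 48 h the Pic difference was 0.53 (SE 0.20, limma adjusted p = 0.0438), a call lost without any 1 of the 6 libraries, and at 96 h it was 0.44 (adjusted p = 0.0727).

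Dirigent genes were mostly called in the downward direction. After Hal treatment 6, 7 and 6 of the 11 were downregulated at 2, 48 and 96 h, and after Pic treatment 5, 2 and 6. The shares of all genes lowered were 11.4%, 25.1% and 30.2% for Hal and 9.37%, 17.9% and 26.4% for Pic. The Hal count at 2 h was 5 without Hal replicate 3. The Pic count at 2 h was 3 without Pic replicate 2, and that at 48 h was 0 without control replicate 1 or Pic replicate 1 and 1 without Pic replicate 2. Under equal totals the counts were 5, 5 and 4 for Hal and 5, 0 and 2 for Pic, where 11.2%, 15.1% and 16.1% of all genes fell after Hal and 8.62%, 10.9% and 12.6% after Pic. No dirigent was called as upregulated other than BnaC05g39660D at 96 h, whose direction there the filter fixed, and with equal totals BnaUnng05170D after Hal and BnaA02g21790D after Pic were called too. Summed over the 11 genes, the level at 2 h was 90.7 ± 6.25 FPKM in control, 44.3 ± 8.10 after Hal and 59.1 ± 7.21 after Pic, and at 96 h it was 112.2 ± 14.3, 46.9 ± 3.38 and 66.5 ± 8.91 (mean ± SD, n = 3). Most of the control sums came from BnaA05g13900D and BnaC06g10720D, at means of 39.4 and 20.0 FPKM at 2 h and 53.0 and 23.3 at 96 h.

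BnaA05g13900D (scaffold LK031984, 222984 to 223880, minus strand) had the highest mean FPKM of all 24 genes. At 2 h it stood at 37.2, 37.9 and 43.2 FPKM in control, 11.8, 13.9 and 18.5 after Hal and 29.5, 23.3 and 21.8 after Pic. The 3 groups did not overlap, with Pic between Hal and control. The differences were -1.38 for Hal (SE 0.16, limma adjusted p = 9.16e-07) and -0.65 for Pic (SE 0.16, adjusted p = 0.00535).

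The order of the groups for BnaA05g13900D was the same at the later hours. At 96 h it stood at 46.3, 51.0 and 61.8 FPKM in control, 20.4, 18.0 and 17.8 after Hal and 32.8, 39.7 and 28.9 after Pic, and the differences were -1.45 for Hal (SE 0.16, limma adjusted p = 5.05e-08) and -0.64 for Pic (SE 0.16, adjusted p = 0.00261). At 48 h they were -1.14 (limma adjusted p = 3.09e-06) and -0.55 (adjusted p = 0.0124). At equal totals the Pic differences at 48 and 96 h were -0.33 and -0.18 and were not called, and the 48 h call was also lost without control replicate 1, Pic replicate 1 or Pic replicate 2.

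BnaC06g10720D, the next most abundant dirigent gene and named after its values had been seen, stood at 16.9, 22.2 and 20.9 FPKM in control at 2 h, 7.82, 6.45 and 8.82 after Hal and 9.88, 10.4 and 8.70 after Pic. Control lay above both treatments, which overlapped each other. The differences were -1.27 (SE 0.19, limma adjusted p = 2.19e-05) and -0.97 (SE 0.19, adjusted p = 0.000501).

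Among the genes called at 2 h, BnaA06g00460D (scaffold LK032153, 58709 to 59278, plus strand) fell furthest under either treatment. It stood at 4.01, 4.66 and 4.97 FPKM in control, 0.98, 0.49 and 0 after Hal and 1.43, 2.15 and 0.51 after Pic. The Hal libraries held 10, 6 and 0 reads, where a count of 0 allows up to 3 reads, and the control libraries 42 to 50. The differences were -1.95 for Hal (SE 0.25, limma adjusted p = 3.5e-06) and -1.29 for Pic (SE 0.25, adjusted p = 0.000542). At 96 h they were -1.53 (limma adjusted p = 1.42e-05) and -1.69 (adjusted p = 6.96e-06), and at 48 h the gene was called for Hal, at -1.20 (adjusted p = 0.000373), and not for Pic, at -0.40 (adjusted p = 0.251). The Pic replicate 2 library at 48 h, with 4.46 FPKM, lay within the control range.

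Its neighbour BnaA06g00450D was lower, at 1.35 ± 0.33 FPKM in control at 2 h, and was downregulated by both treatments at that hour only, by -1.0 for Hal (SE 0.22, limma adjusted p = 0.00162) and -0.77 for Pic (SE 0.22, adjusted p = 0.0126). The Hal value rests on 2, 4 and 0 reads per library. The Pic call was lost without control replicate 1 or Pic replicate 2.

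BnaC05g39660D (scaffold LK032145, 530046 to 530606, plus strand) was the exception among the dirigents. At 96 h it held 1.64, 1.11 and 1.78 FPKM after Hal and 1.32, 0.79 and 1.28 after Pic, from 8 to 20 reads per library, against 0, 0.61 and 0 in control, from 0, 5 and 0 reads. All treated libraries lay above all control libraries. Its FPKM reached 1 in 5 libraries, 3 of Hal and 2 of Pic at 96 h, so it passed the filter only through the groups where it was high and had to differ there. The differences, 1.09 for Hal and 0.85 for Pic, are therefore given as a description with no test.

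**Figure D4:**
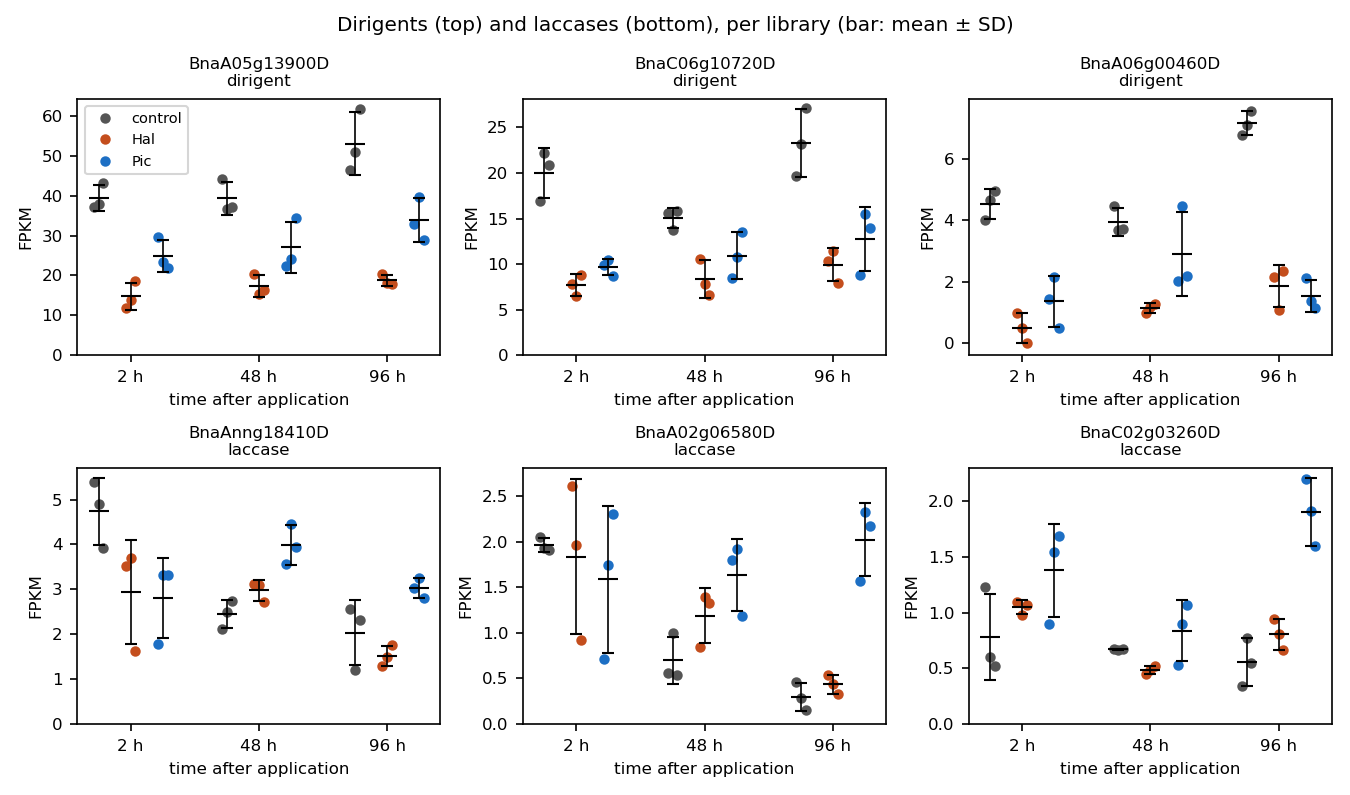
FPKM of 3 dirigent genes (top) and the 3 laccases (bottom) in each library (points), by hour and treatment, with the mean and SD over 3 replicates. The dirigents are BnaA05g13900D, BnaC06g10720D and BnaA06g00460D. Their points for both treatments at 2 h lie below every control point, and those of BnaA05g13900D do so at each hour, while the Pic points of BnaA02g06580D and BnaC02g03260D lie above control at 96 h.

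The 2 herbicides were also compared with each other at each hour, at the doses used, which differ. At 2 h 4 of the 24 genes were lower after Hal than after Pic, against 11.2% of all genes, and 1 was higher, against 9.04%. The lower genes were the PAL gene BnaA05g28470D at -0.91 (limma adjusted p = 1.28e-06), BnaA09g34840D at -0.98 (adjusted p = 0.000307), and the dirigents BnaA05g13900D at -0.73 (adjusted p = 0.00224) and BnaAnng18850D at -0.59 (adjusted p = 0.0242). The last call was lost without Hal replicate 1, Hal replicate 2, Pic replicate 1 or Pic replicate 3. The higher gene was the dirigent BnaA09g30290D, at 6.40, 5.86 and 9.69 FPKM after Hal and 2.18, 2.73 and 3.19 after Pic, a difference of 1.15 (SE 0.24, limma adjusted p = 0.00105). Its control libraries, at 3.39, 4.35 and 5.65 FPKM, lay between them and neither treatment was called against control. Without replicate 3 of Hal at 2 h the counts were again 4 lower and 1 higher, and with equal totals 5 lower and 1 higher, against 12.2% and 9.15% of all genes.

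At 48 h 6 genes were lower after Hal, against 16.8%, and 0 higher, against 14.6%, with 0 higher by voom and 0 at an unadjusted p under 0.05. Anthocyanidin synthase gave the largest of these differences, at -1.09 (SE 0.18, limma adjusted p = 4.33e-05). Equal totals gave 5 lower and 1 higher, the PAL gene BnaCnng52250D at 0.41, where 12.1% of all genes were lower and 21% higher.

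At 96 h 13 genes were lower after Hal than after Pic, against 22% of all genes, and 0 were higher, against 23%. Voom called 0 as higher, and 2 were higher at an unadjusted p under 0.05. With equal totals the counts were 11 lower and 3 higher, where 18% of all genes were lower and 31.8% higher. The 13 comprised 1 PAL gene, C4H, 5 of the 6 chalcone isomerase family genes, all 3 laccases and 3 of the 11 dirigents, so 10 of the 13 genes that are not dirigents were lower after Hal. With equal totals 3 of the chalcone isomerase family genes were lower, and 8 of the 13. The family count was also 3 without Pic replicate 3.

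The differences at 96 h were -2.10 for BnaA06g00880D (95% interval -2.40 to -1.80, limma adjusted p = 1.97e-11), -1.69 for BnaC06g06390D (-1.97 to -1.41, adjusted p = 2.11e-10), and -0.86 for C4H (-1.09 to -0.64, adjusted p = 5.16e-07). The laccases differed by -1.07 for BnaA02g06580D, -0.68 for BnaC02g03260D and -0.68 for BnaAnng18410D. For the PAL gene BnaA05g28470D the difference was -0.03 with an interval of -0.25 to 0.20. Among the dirigents BnaA06g00460D differed by 0.16, with an interval of -0.37 to 0.68 that leaves room for a difference in either direction.

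**Figure D5:**
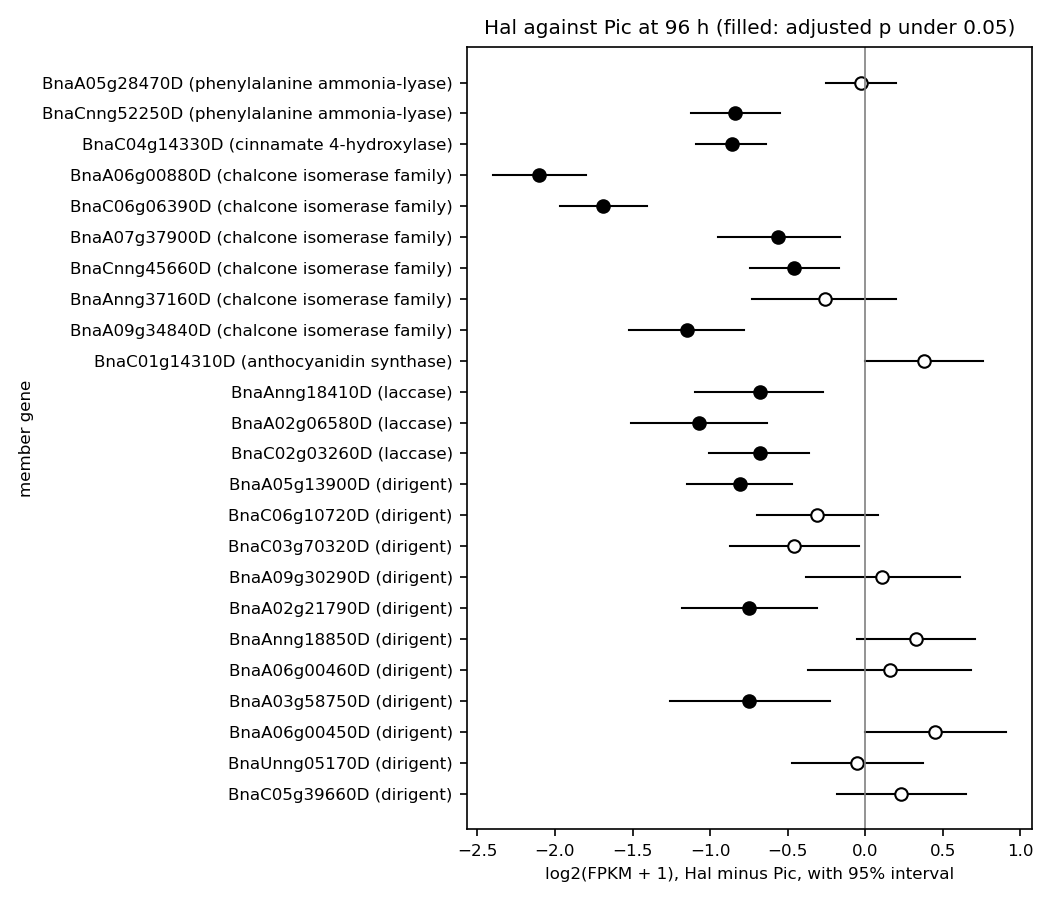
Difference between Hal and Pic at 96 h for each of the 24 genes on the log2(FPKM + 1) scale (points) with 95% intervals (lines), filled where the adjusted p was under 0.05. The filled points all lie on the side of lower levels after Hal, from -0.46 for BnaCnng45660D to -2.10 for BnaA06g00880D, and the interval of the PAL gene BnaA05g28470D spans 0.

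Genes of the routes around the 24 were described from 2 further lists. The shares of all genes set beside their counts are those given above. For Hal they were 10.1%, 23.3% and 29.1% up and 11.4%, 25.1% and 30.2% down at 2, 48 and 96 h. For Pic they were 10.7%, 13.9% and 22.2% up and 9.37%, 17.9% and 26.4% down. With equal totals the shares for Hal at 48 and 96 h were 39.6% and 51.7% up and 15.1% and 16.1% down. Those for Pic were then 22.5% and 41% up and 10.9% and 12.6% down.

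The shikimate pathway supplies phenylalanine, and 17 of its genes were tested. After Hal 0, 1 and 1 of them were upregulated and 2, 6 and 12 downregulated at 2, 48 and 96 h, and after Pic 4, 0 and 2 were upregulated and 1, 7 and 8 downregulated. The median difference at 96 h was -0.65 for Hal and -0.08 for Pic. At equal totals the 96 h counts were 4 up and 5 down for Hal and 8 up and 2 down for Pic, and those at 48 h were 3 up and 4 down for Hal and 0 up and 3 down for Pic. The counts for Hal at 2 h were the same without Hal replicate 3. The 4 upregulated by Pic at 2 h became 2 without control replicate 3, Pic replicate 1 or Pic replicate 3. For the counts of 0, 1 gene rose after Hal at 2 h and 1 after Pic at 48 h at an unadjusted p under 0.05, and voom called 0 and 1.

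The second list held 10 tested genes that the table places in the chalcone and stilbene synthase domain family. The domain is shared with other condensing enzymes, and the only one of the 10 with a functional description, BnaC02g02670D, was described as a 3-ketoacyl-CoA synthase of fatty acid elongation. After Hal 2, 0 and 3 of the 10 were upregulated and 5, 4 and 6 downregulated at 2, 48 and 96 h, and after Pic 1, 5 and 7 were upregulated and 1, 1 and 0 downregulated. At 96 h 6 were lower after Hal than after Pic, against 22% of all genes, and 0 higher, against 23%. Voom also called 0 as higher, and 0 were higher at an unadjusted p under 0.05. The median difference at 96 h was -0.51 for Hal and 0.58 for Pic. At equal totals the 96 h counts were 3 up and 2 down for Hal and 8 up and 0 down for Pic, and those for Hal at 48 h were 5 up and 4 down. Without Hal replicate 3 the counts for Hal at 2 h were 1 up and 4 down. The 6 downregulated by Hal at 96 h became 3 without control replicate 3, and the 5 upregulated by Pic at 48 h became 3 without control replicate 1, control replicate 3 or Pic replicate 1. Voom also called 0 as upregulated by Hal at 48 h, where 2 rose at an unadjusted p under 0.05, and 0 as downregulated by Pic at 96 h, where 0 fell at that threshold.

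A pair of genes described as flavanone 3-hydroxylase, the enzyme that follows chalcone isomerase on the way to flavonols and anthocyanins, lay outside the word rule and were added after their values had been seen. BnaC08g22640D stood at 17.8 ± 2.01 FPKM in control at 96 h, 8.87 ± 0.86 after Hal and 33.8 ± 3.19 after Pic (mean ± SD, n = 3), with differences from control of -0.93 (SE 0.12, limma adjusted p = 3.72e-07) and 0.89 (SE 0.12, adjusted p = 1.56e-06). BnaA09g31780D stood at 6.46 ± 1.05, 3.80 ± 0.59 and 15.2 ± 1.35 FPKM, with differences of -0.64 (SE 0.15, limma adjusted p = 0.00108) and 1.13 (SE 0.15, adjusted p = 2.03e-06). At equal totals the Hal differences were -0.33 and -0.10, the second of which was not called, and the Pic differences were 1.33 and 1.53.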

How the data were processed

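The authors deposited a table of FPKM per gene for 27 leaf libraries, prepared from total RNA with an Illumina kit. The submitters' processing notes name CASAVA, HISAT2, StringTie, DESeq2, edgeR and GATK. Versions, genome build and the handling of strand and of reads matching several genes are not given in the sources used here, and coordinates are those of the table. FPKM times gene length gave whole reads (within 0.01 read) for 100% of the values. Depth limits low genes, where 3 reads is the limit that a count of 0 allows.

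Values were tested as log2(FPKM + 1) with limma 3.58.1 (trended variance, 1 fit, 9 groups, R 4.3.3) on the 46395 genes at FPKM 1 or more in at least 3 libraries, two-sided, adjusted over all of them within a comparison. The script was tested on simulated data. The replicates come from different plant material. Named genes are those with the highest level or smallest p for Hal at 96 h in a class, the largest rise or fall per comparison, and all of a class of 2 or fewer. Others are named after their values were seen. The members and lists were chosen with earlier results of these data known. For comparisons at the same hour, alternatives covered the pseudocount, filter, scaling, libraries fitted, replicate block, size of change, voom and leaving out each library. The change in response between 2 and 96 h was fitted in the main setting only. Gene identifiers matched no entry of the RefSeq gene table (0 of the IDs), so no sequences or promoter motifs are shown.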

Additional observations from a re-analysis of the deposited data

Results flagged for a closer look

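The response to a treatment was compared between 96 h and 2 h as an interaction term in the same limma fit, and genes with an adjusted p under 0.05 and a change of at least 1 on the log2(FPKM + 1) scale are listed. Of the 24 genes, 9 passed the p threshold for Hal, against 46.3% of all genes tested, and 7 for Pic, against 32.6%. With that size the counts were 6 for Hal, against 23.4%, and 2 for Pic, against 11.8%. Both Hal counts include the dirigent BnaC05g39660D, which the filter on low values let through only by its treated libraries at 96 h and which is no test.

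For Hal the response of the chalcone isomerase family genes BnaA06g00880D and BnaC06g06390D was lower at 96 h by -3.03 (SE 0.21, limma adjusted p = 1.51e-11) and -2.30 (SE 0.19, adjusted p = 4.38e-10). That of the dirigent BnaA09g30290D was lower by -1.48 (SE 0.34, limma adjusted p = 0.000865). It was higher at 96 h for the PAL gene BnaA05g28470D by 1.28 (SE 0.16, limma adjusted p = 3.12e-07) and for the dirigent BnaA06g00450D by 1.02 (SE 0.31, adjusted p = 0.00909). The dirigent BnaC05g39660D stood higher by 1.25, a description only, since it passed the filter on low values through its treated libraries at 96 h alone.

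For Pic the laccases BnaA02g06580D and BnaAnng18410D had a higher response at 96 h, by 1.47 (SE 0.30, limma adjusted p = 0.000597) and 1.05 (SE 0.28, adjusted p = 0.00601). For BnaAnng18410D the Pic call at 2 h was lost in some fits that left out a library, and Pic was not called against control at 96 h. Each of these 8 changes compares 4 groups of 3 libraries. The dirigents BnaC05g39660D and BnaA06g00450D rest on few reads, with several libraries at 0.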

How the results depend on the processing

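Of the 93 calls of members over the 9 comparisons, 19 were lost with libraries scaled to equal totals and 1 more reversed, 2 with median-ratio scaling, 7 with voom, 7 with the replicate block, 9 with a pseudocount of 0.1, 13 with only the compared libraries, 20 with no filter, 64 with a size of at least 1 required, and 0 of 76 with a filter at FPKM 5. In turn 29 were lost in at least 1 fit that left out 1 library. The equal-totals scaling turned the Hal difference at 96 h to 0.06 for BnaC04g14330D, 0.44 for BnaCnng45660D and 0.46 for BnaA09g34840D. It raised the median of all genes, which accounts for part of its shifts by construction.

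Counts moved as follows, up and down being relative to control or, between herbicides, to Pic. With equal totals Hal at 48 h gave 4 up and 7 down, Hal at 96 h 8 up, Pic at 2 h 2 up, Pic at 48 h 2 down, Pic at 96 h 4 down, and Hal against Pic 1 up at 48 h and 3 up at 96 h. With a size of at least 1, Hal gave 5 down at 2 h, 4 down at 48 h and 1 up at 96 h, against 2.06%, 8.18% and 8.8% of all genes. That 1 upregulated gene is the dirigent BnaC05g39660D, whose direction at 96 h the filter on low values fixed, so it is no test. For Pic that requirement left upregulated counts of 0, 1 and 2 and downregulated counts of 1, 1 and 2 at the 3 hours, against 2.82%, 2.73% and 3.58% and against 1.19%, 3.46% and 7.56%. For Hal against Pic it left lower counts of 0, 1 and 4, against 2.79%, 3.38% and 6.87%. With no filter, where all 81 genes count, Hal gave 2 up at 48 h and 5 up at 96 h, Pic 0 up at 2 h and 3 down at 48 h, and Hal against Pic 1 up at 48 h and 1 up at 96 h. With FPKM of at least 5, which leaves 16 members, Hal gave 1 up at 96 h and Pic 0 up at 48 h. With only the compared libraries Pic gave 0 up at 2 h and 2 down at 48 h, voom gave 2 up for Pic at 2 h, and a pseudocount of 0.1 gave 5 down for Pic at 2 h. The shares of all genes with equal totals are those given above. For no filter, FPKM of at least 5, only the compared libraries, voom and the pseudocount of 0.1 no such shares are given. Those moves were therefore not set against the moves of all genes, and none is read as particular to the members. The causes were not tested.

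Leaving out 1 library at a time, the upregulated counts for Hal were 0 to 0, 0 to 1 and 2 to 3 at 2, 48 and 96 h and the downregulated counts 7 to 9, 9 to 12 and 8 to 10. For Pic the upregulated counts were 0 to 2, 1 to 3 and 7 to 10 and the downregulated 5 to 8, 2 to 6 and 8 to 10. Between Hal and Pic the higher counts were 1 to 1, 0 to 0 and 0 to 1 and the lower 3 to 5, 4 to 5 and 11 to 13. The shares of all genes in these fits are not given, so the ranges are not set against a change in all genes. The upregulated counts against control at 96 h include BnaC05g39660D, whose direction there the filter fixed.

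No pairing of samples by their shared replicate numbers was seen, although with 3 libraries per group this check cannot exclude it. The correlation of same-numbered libraries' deviations averaged -0.118 to 0.0616 over the 9 pairs of groups, with 1 single pair over 0.1. With the replicate block within harvest time no count of calls moved by over 1.5 times.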
